A study of Mus musculus with 27 samples.

Results

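The lysyl oxidase family comprises 5 genes in the mouse, Lox, Loxl1, Loxl2, Loxl3 and Loxl4, and all 5 were found by symbol among the 22855 genes of the counts. The family was chosen for a pattern in the fibroblast values themselves, a high level of Lox at 1 year of age, so the fibroblast values at 1 year are described below without a test. Gene expression had been measured by RNA-Seq of polyadenylated RNA for 12 cardiac fibroblast and 15 whole heart samples of C57BL/6 mice, with no treatment or genetic change named in the labels. The design text of the series speaks of myocardial infarction, which neither the labels nor the study's methods name for any of these samples, and the labels were followed. The cardiac fibroblasts were cells carrying PDGFRα, sorted by flow cytometry from ventricles freed of atria and valves, and the whole heart samples were RNA of heart tissue. Both tissues were sampled at 5 ages, namely postnatal day 1, then 4 and 14 weeks, then 1 and 1.5 years, with 3 whole heart samples at each age and 3 fibroblast samples at each of the first 2 ages, but 2 at each of the 3 later ages. The questions were how the level of each family member changed with age in each tissue, and which members were high in fibroblasts at 1 year together with Lox.

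Lysyl oxidases are secreted, copper-dependent enzymes that oxidize lysine side chains of collagen and elastin to reactive aldehydes, which then join neighbouring chains by covalent cross-links. Lox and Loxl1 are made with a propeptide that procollagen C-proteinases such as BMP1 remove outside the cell, whereas Loxl2, Loxl3 and Loxl4 carry scavenger receptor cysteine-rich domains in front of the catalytic domain. In the heart these enzymes are made mainly by fibroblasts, and the cross-links they start add to the stiffness and stability of the matrix.

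The catalytic domain holds a stretch of closely spaced histidines around the copper site, which is shown here because it is what all 5 enzymes share. The coding sequences below are 33 bases each, run 5′ to 3′ on the coding strand, were read from the GENCODE M21 transcripts on GRCm38 (the assembly also called mm10), and have their 4 histidine codons in capitals.
Loxl1: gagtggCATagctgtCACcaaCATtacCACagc
Loxl2: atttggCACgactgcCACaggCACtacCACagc
Loxl3: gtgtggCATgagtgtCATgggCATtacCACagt
Loxl4: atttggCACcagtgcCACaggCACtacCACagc
In every member this stretch was split by an intron. It lay at chr9:58293717-58294378 across exons 3 and 4 of 7 in Loxl1, at chr14:69682319-69689040 across exons 10 and 11 of 14 in Loxl2, at chr6:83049998-83050128 across exons 10 and 11 of 14 in Loxl3, and at chr19:42598804-42599896 across exons 11 and 12 of 15 in Loxl4. Lox and Loxl1 differed at 1 of the 33 bases, and Loxl2 and Loxl4 differed at 2, while every other pair differed at 9 to 12 bases. The longest open reading frame among a gene's protein-coding transcripts encoded 411 residues in Lox, 607 in Loxl1, 776 in Loxl2, 754 in Loxl3 and 758 in Loxl4. The exon numbers above are those of the transcript that holds it.

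The 5 genes lay on 5 chromosomes, Lox at chr18:52516067-52529867 on the minus strand, Loxl1 at chr9:58287738-58313186 on the minus strand, Loxl2 at chr14:69609068-69695834 on the plus strand, Loxl3 at chr6:83034173-83052562 on the plus strand and Loxl4 at chr19:42593982-42612813 on the minus strand. Their merged exons spanned 4778 bases in Lox, 3297 in Loxl1, 5405 in Loxl2, 4603 in Loxl3 and 4213 in Loxl4. No pair of members shared a run of 65 bases, the read length, and the longest shared run was 32 bases, between Lox and Loxl1. Exons of some members overlapped those of genes on the opposite strand. The longest overlap of a single pair of exons was 369 bases between Loxl3 and Htra2. It was 244 bases between Loxl2 and the antisense gene Gm27177, and 30 bases between Lox and the antisense gene AC161119.1. Reads in these overlaps cannot be assigned to a gene without the strand setting of the counting, which is not given in the sources used here.

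Total counts ranged from 54615898 to 76758831 per fibroblast sample and from 46091271 to 67984404 per whole heart sample. Levels are given as CPM, counts per 1000000 reads scaled by TMM within each tissue. Pdgfra, the receptor used for sorting, stood at 784 to 1367 CPM in fibroblast samples and at 28.6 to 62.0 CPM in whole hearts. The summed level of 7 cardiomyocyte markers was 613 to 680 CPM in the fibroblast samples of postnatal day 1 and 10.8 to 145 CPM in the later ones, against at least 30356 CPM in whole hearts. The summed level of 9 endothelial markers varied within ages, at 2164 CPM in replicate 3 of the fibroblasts of 4 weeks against 745 and 650 CPM in the others, and at 1619 CPM in replicate 5 of those of 1.5 years against 356 CPM in replicate 4. Xist was at most 0.570 CPM in every sample of 14 weeks and 1 year in both tissues, and Ddx3y was at most 0.397 CPM in every sample of 1.5 years, so that age and sex cannot be told apart in comparisons of 1.5 years with 14 weeks or 1 year. The samples of postnatal day 1 and 4 weeks held both transcripts, with Xist at 6.48 CPM or more and Ddx3y at 1.64 CPM or more, so age and sex cannot be fully told apart in comparisons of these ages with later ones either. The labels do not say which animals each sample came from, so the p-values measure the spread between these samples. The paper describes sequencing fibroblasts together with their source hearts, so samples of both tissues may share animals. The main fit over both tissues treats all samples as independent.

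Loxl1 was the most abundant family member per length of transcript in both tissues at every age, and the mixture of members shifted with age. In tissue as in sorted pools, fewer cells of a type and less RNA per cell cannot be told apart. In fibroblasts Loxl1 stood at 429 ± 48.2 CPM per kilobase at postnatal day 1 (mean ± SD, n = 3), 549.6 ± 95.3 at 4 weeks (n = 3), 325 ± 20.8 at 14 weeks (n = 2), 738 ± 122 at 1 year (n = 2) and 407 ± 112 at 1.5 years (n = 2). Only 0.22% to 0.44% of genes had a higher mean level per kilobase in fibroblasts than Loxl1. Loxl2 followed at a mean of 43.5 to 128 CPM per kilobase over the ages, then Lox at 18.3 to 69.3, Loxl3 at 16.7 to 28.4 and Loxl4 at 1.24 to 6.80. The order of Lox and Loxl3 was close at 4 weeks, where Lox was at 19.6 ± 3.51 and Loxl3 at 20.1 ± 1.64 CPM per kilobase (n = 3 each), and at 1.5 years, where Lox was at 18.3 ± 4.75 and Loxl3 at 21.5 ± 4.86 (n = 2 each), differences within the spread between samples.

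The family's composition, as the share of each member in the family's reads per kilobase, changed mainly in Loxl2 and Lox against Loxl1. In fibroblasts Loxl1 made up 74.4%, 61.9% and 63.6% of the family at postnatal day 1 and a mean of 75.7% ± 2.96 at 4 weeks (SD, n = 3), 74.8% ± 1.12 at 14 weeks, 82.5% ± 0.703 at 1 year and 82.5% ± 0.036 at 1.5 years (n = 2 each). Loxl2 made up 19.8% ± 3.91 at postnatal day 1 (n = 3) and 7.22% ± 0.373 at 1 year (n = 2). Lox made up 10.8% ± 3.03 at postnatal day 1 (n = 3), 2.80% ± 0.939 at 4 weeks (n = 3), 5.00% ± 0.157 at 14 weeks, 6.32% ± 0.362 at 1 year and 3.73% ± 0.063 at 1.5 years (n = 2 each). In whole hearts the share of Loxl1 was lowest at postnatal day 1, at 50.8%, 56.8% and 58.2%, and averaged 74.0% to 86.0% at the later ages, while the share of Lox was 16.8% at postnatal day 1 and 2.26% to 4.01% later.

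**Figure D1:**
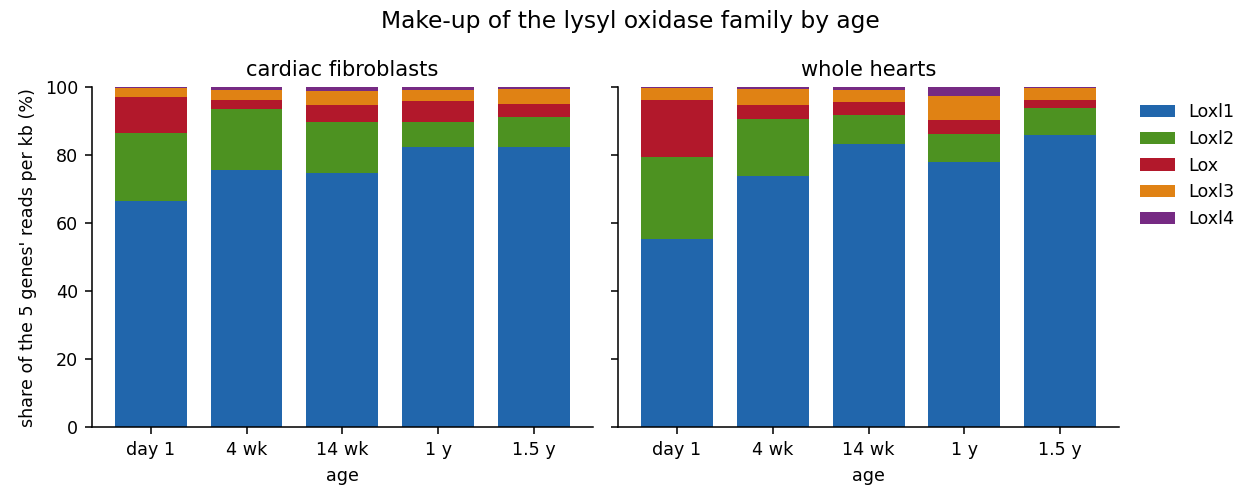
Mean share of each family member in the family's reads per kilobase of merged exon (percent, vertical axis from 0 to 100) at the 5 ages, in cardiac fibroblasts (left, 3 or 2 samples an age) and whole hearts (right, 3 samples an age). Loxl1 is the tallest part of every bar, and the parts of Lox and Loxl2 are largest at postnatal day 1, where Lox holds 10.8% in fibroblasts and 16.8% in whole hearts.

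In fibroblasts Lox, the founding member and a main cross-linker of fibrillar collagen and elastin, was at 228, 364 and 402 CPM at postnatal day 1, at 80.6, 87.9 and 113 CPM at 4 weeks, at 98.0 and 109.9 CPM at 14 weeks, at 316 and 227 CPM at 1 year, and at 104 and 71.5 CPM at 1.5 years. The samples of postnatal day 1 and of 1 year overlapped each other and stood above all other fibroblast samples, and the 3 remaining ages overlapped. Loxl1, which is needed for the upkeep of elastic fibres, was at 1593, 1290.1 and 1358 CPM at postnatal day 1, at 2034, 1950.2 and 1452 CPM at 4 weeks, at 1023 and 1120.4 CPM at 14 weeks, at 2718 and 2147 CPM at 1 year, and at 1604 and 1080.3 CPM at 1.5 years. The pair of 1-year samples was above every other fibroblast sample, and the samples of each other age overlapped those of the next age in order of level.

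Loxl2, which is known to cross-link type IV collagen of basement membranes, was at 543, 789 and 725 CPM at postnatal day 1, at 723, 724 and 632 CPM at 4 weeks, at 369.6 and 334 CPM at 14 weeks, at 406 and 295 CPM at 1 year, and at 286 and 184 CPM at 1.5 years. All samples of postnatal day 1 and 4 weeks were above all later ones, the 1-year samples fell on either side of those of 14 weeks, and the 1.5-year samples were below all others. Loxl3, known from its need in palate and spine development, was at 76.3, 78.1 and 76.3 CPM at postnatal day 1, at 86.8, 101 and 89.5 CPM at 4 weeks, at 70.5 and 93.3 CPM at 14 weeks, at 148 and 114 CPM at 1 year, and at 115 and 83.2 CPM at 1.5 years. Each age overlapped the next in order of level, with 1 year at the top and postnatal day 1 at the bottom. Loxl4 was at 5.80, 5.87 and 4.04 CPM at postnatal day 1, at 18.2, 24.5 and 35.5 CPM at 4 weeks, at 21.1 and 20.8 CPM at 14 weeks, at 30.7 and 26.6 CPM at 1 year, and at 13.2 and 9.74 CPM at 1.5 years. Its samples of postnatal day 1 were the lowest and those of 1.5 years the next, and the samples of 4 weeks reached from below those of 14 weeks to above those of 1 year.

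Replicate 4 was higher than replicate 5 for all 5 members both at 1 year and at 1.5 years. The endothelial sum stood the other way in the same samples, at 578 CPM in replicate 4 and 786 CPM in replicate 5 at 1 year, and its part in the difference was not tested.

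**Figure D2:**
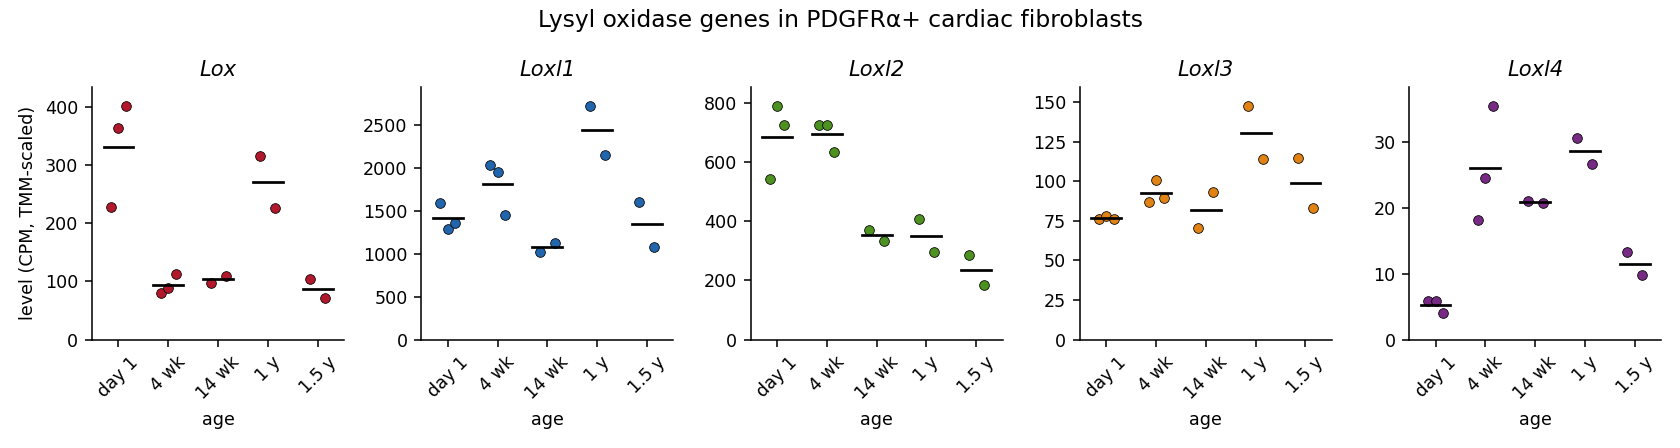
CPM (vertical axes, each from 0) of the 5 family members in each of the 12 fibroblast samples, by age with equal spacing along the horizontal axis, with a dot for each sample and a black bar for the mean of an age. Lox is high at postnatal day 1 and at 1 year, Loxl1 is highest at 1 year, and Loxl2 is high at postnatal day 1 and 4 weeks and lower at every later age.

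Of the 4 other members, Loxl1, Loxl3 and Loxl4 stood higher in both 1-year fibroblast samples than in both samples of 14 weeks, as Lox did, and Loxl2 did not. Among all 18759 genes tested in fibroblasts, 26.6% were higher without overlap in this comparison of 2 samples with 2, and the family was chosen from it, so nothing is read from the count. The fitted difference of 1 year from 14 weeks on the log2 scale was 1.39 in Lox (2.61-fold) and 1.18 in Loxl1 (2.27-fold). It was 0.68 in Loxl3 (1.60-fold) and 0.45 in Loxl4 (1.37-fold), and it was −0.00 in Loxl2, at 0.997-fold. A larger difference than that of Lox was seen in 10.2% of the genes tested, than that of Loxl1 in 11.8%, than that of Loxl3 in 19.4% and than that of Loxl4 in 25.7%. The ratio of Loxl1 to Lox per kilobase was 15.1 and 14.8 in the samples of 14 weeks and 12.5 and 13.7 in those of 1 year.

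Marker levels differed between the same samples. Of 9 endothelial markers 8 were lower without overlap at 1 year than at 14 weeks, and their sum was 578 and 786 CPM at 1 year against 1863 and 1574 CPM at 14 weeks. Of 7 cardiomyocyte markers 6 were lower without overlap, with Ryr2 at 0 in replicate 4 of 1 year, and of 7 macrophage markers 5 were lower. The share of all genes lower without overlap in this comparison is not given here, so nothing is read from these counts. The summed immediate early genes, which are known to respond to the isolation of cells, stood at 30874 to 32976 CPM at 1 year against 25747 to 28551 CPM at 14 weeks, and the part of these differences in the family's values was not tested.

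From 1 year to 1.5 years 4 of 5 members stood lower without overlap in fibroblasts, against 21% of all genes tested. The fitted log2 difference was −1.63 in Lox, −0.86 in Loxl1, −0.58 in Loxl2 and −1.32 in Loxl4, and −0.40 in Loxl3, whose samples overlapped. These values share the 1-year samples with the comparison above and were not tested.

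Between postnatal day 1 and 4 weeks Lox fell and Loxl4 rose in fibroblasts, and the abundant members Loxl1 and Loxl2 did not pass the test. With edgeR's quasi-likelihood test and Benjamini-Hochberg adjustment over all genes, 2 of 5 members were called, against 15.5% of all genes tested. Lox was 3.54-fold lower at 4 weeks, a log2 change of −1.82 (SE 0.23, adjusted p = 1.4e-04). Loxl4 was 4.98-fold higher, a log2 change of 2.32 (SE 0.29, adjusted p = 1.3e-04). In both genes all 3 samples of an age stood apart from all 3 of the other, and the share of all genes that did so is not given here. Loxl1 differed by 0.36 on the log2 scale (SE 0.18, adjusted p = 0.199), Loxl2 by 0.02 (SE 0.19, adjusted p = 1.00) and Loxl3 by 0.27 (SE 0.16, adjusted p = 0.282), although the samples of Loxl3 did not overlap. Of the 7 cardiomyocyte markers 4 were lower and of the 7 fibroblast markers 6 were higher at 4 weeks by the same test. Of 8 immediate early genes, which respond to cell isolation, 7 were higher, with a sum of 11217 to 15665 CPM at postnatal day 1 and 25778 to 28120 CPM at 4 weeks. Of 6 cell cycle genes 3 were lower by the test, and all 6 without overlap. As no share of all genes without overlap is given for this comparison, nothing is read from the lack of overlap. The part of these differences in the family's changes was not tested.

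Between 4 and 14 weeks Loxl2 fell in fibroblasts, the single call among 5 members, against 3.87% of all genes tested. Loxl2 was 1.97-fold lower at 14 weeks, with a log2 change of −0.98 (SE 0.22, adjusted p = 0.0260). The call was lost without either 14-week sample (adjusted p = 0.164 and 0.248) and without replicate 1 or replicate 2 of 4 weeks (adjusted p = 0.0781 and 0.0675), while the log2 change stayed between −1.06 and −0.91 in these fits. Loxl1 stood at −0.76 on the log2 scale (SE 0.20, adjusted p = 0.0595) with no overlap between samples, for which no share of all genes is given here. It passed with DESeq2 (adjusted p = 0.00217) and without replicate 3 of 4 weeks (adjusted p = 0.0274). The endothelial sum was 2164 CPM in that replicate, 745 and 650 CPM in the others of 4 weeks, and 1863 and 1574 CPM at 14 weeks. Its part in the change of Loxl1 was not tested. Lox differed by 0.15 (SE 0.25, adjusted p = 0.892), Loxl3 by −0.17 (SE 0.18, adjusted p = 0.747) and Loxl4 by −0.32 (SE 0.31, adjusted p = 0.722). Of 7 macrophage markers 5 were lower at 14 weeks by the same test, and their sum was 269 to 448 CPM at 4 weeks and 31.8 to 40.7 CPM at 14 weeks. Of the 6 cell cycle genes 4 were lower, Xist was lower and Ddx3y higher, and the part of these differences in the change of Loxl2 was not tested.

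Between 14 weeks and 1.5 years 0 of 5 members were called in fibroblasts by edgeR, against 2.72% of all genes tested, with 2 members at an unadjusted p under 0.05 and 0 called by DESeq2. Loxl2 differed by −0.58 (SE 0.23, adjusted p = 0.267) and Loxl4 by −0.87 on the log2 scale (SE 0.34, adjusted p = 0.259), each with no overlap between samples, as 26% of all genes were lower. Lox differed by −0.25 (SE 0.27, adjusted p = 0.772), Loxl1 by 0.32 (SE 0.22, adjusted p = 0.537) and Loxl3 by 0.27 (SE 0.20, adjusted p = 0.559).

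Over the whole span between postnatal day 1 and 1.5 years Lox and Loxl2 fell and Loxl4 rose in fibroblasts, 3 of 5 members, against 16.3% of all genes tested. Lox was 3.78-fold lower at 1.5 years (log2 −1.92, SE 0.27, adjusted p = 2.7e-04) and Loxl2 was 2.92-fold lower (log2 −1.54, SE 0.22, adjusted p = 3.4e-04). Loxl4 was 2.19-fold higher (log2 1.13, SE 0.30, adjusted p = 0.0218), a call lost without replicate 4 of 1.5 years (adjusted p = 0.180) or replicate 3 of postnatal day 1 (adjusted p = 0.0629). Loxl1 differed by −0.08 (SE 0.20, adjusted p = 0.880), with the sign turning to 0.18 without replicate 5 of 1.5 years, and Loxl3 by 0.36 (SE 0.18, adjusted p = 0.199). In the same comparison all 6 cell cycle genes, 4 of 7 cardiomyocyte and 4 of 7 macrophage markers and Ddx3y were lower, and all 8 immediate early genes, 6 of 7 fibroblast markers and Xist were higher, and their part in these changes was not tested.

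**Figure D3:**
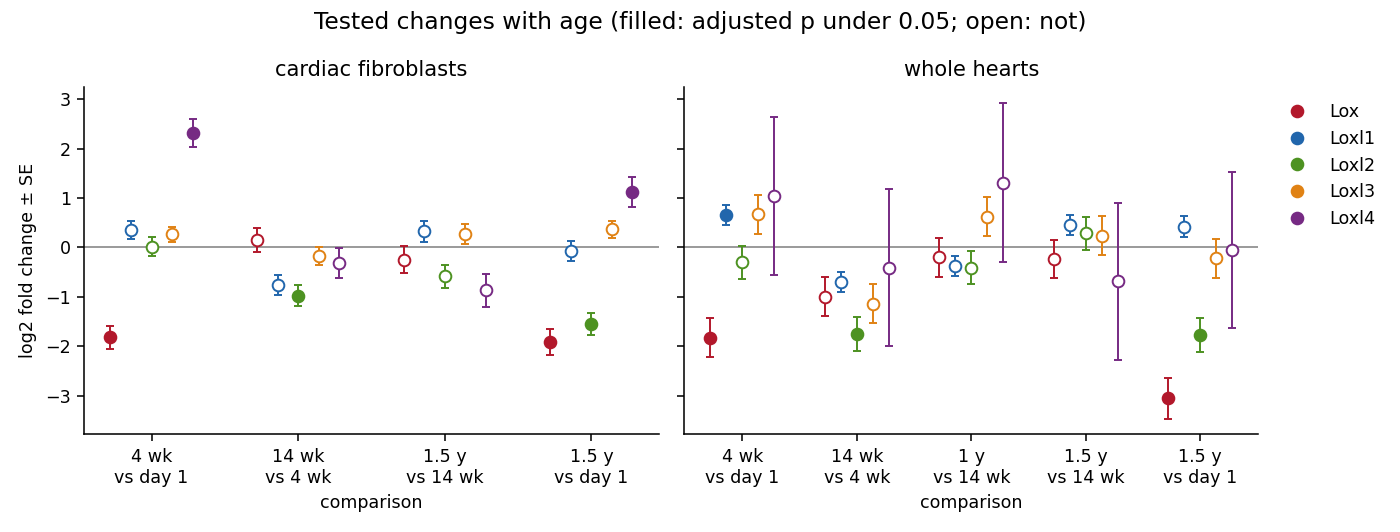
Log2 fold change ± SE of each family member in the tested comparisons of ages, in fibroblasts (left, 4 comparisons) and whole hearts (right, 5 comparisons), with filled points for an adjusted p under 0.05 and open points for the rest. Lox is filled and below 0 between postnatal day 1 and 4 weeks in both tissues, at −1.82 and −1.83, and Loxl2 is filled and below 0 from 4 to 14 weeks in both, at −0.98 and −1.75.

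In whole hearts Lox was at 27.7, 28.5 and 28.6 CPM at postnatal day 1, at 7.16, 9.82 and 6.85 CPM at 4 weeks, at 4.45, 4.08 and 3.44 CPM at 14 weeks, at 3.66, 1.71 and 5.05 CPM at 1 year, and at 5.13, 3.26 and 1.84 CPM at 1.5 years. Postnatal day 1 stood above 4 weeks and 4 weeks above 14 weeks without overlap, and the 3 adult ages overlapped. Loxl1 was at 48.9, 75.7 and 72.0 CPM at postnatal day 1, at 78.9, 124 and 109 CPM at 4 weeks, at 65.5, 54.5 and 71.6 CPM at 14 weeks, at 53.0, 56.9 and 37.7 CPM at 1 year, and at 91.3, 81.2 and 90.9 CPM at 1.5 years. Samples of 4 weeks and 1.5 years overlapped each other and lay above all those of the 3 other ages, which overlapped.

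Loxl2 was at 39.8, 55.4 and 44.6 CPM in whole hearts at postnatal day 1, at 37.4, 30.4 and 45.5 CPM at 4 weeks, at 14.7, 6.15 and 12.7 CPM at 14 weeks, at 8.24, 7.76 and 9.30 CPM at 1 year, and at 18.5, 15.6 and 6.95 CPM at 1.5 years. The first 2 ages overlapped each other and stood above all adult samples. Loxl3 was at 5.68, 5.15 and 5.96 CPM at postnatal day 1, at 8.70, 7.16 and 11.0 CPM at 4 weeks, at 4.58, 3.03 and 4.58 CPM at 14 weeks, at 6.59, 7.11 and 5.09 CPM at 1 year, and at 5.96, 6.16 and 2.29 CPM at 1.5 years. Its samples of 4 weeks were above all others, and the other ages overlapped in order of level. Loxl4 had few reads in whole hearts, with 1, 66 and 62 reads at postnatal day 1, 72, 39 and 78 at 4 weeks, 69, 20 and 17 at 14 weeks, 46, 2 and 216 at 1 year and 2, 76 and 4 at 1.5 years, and replicate 3 of 1 year, at 4.33 CPM, was its highest sample. The samples of every age overlapped for Loxl4.

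**Figure D4:**
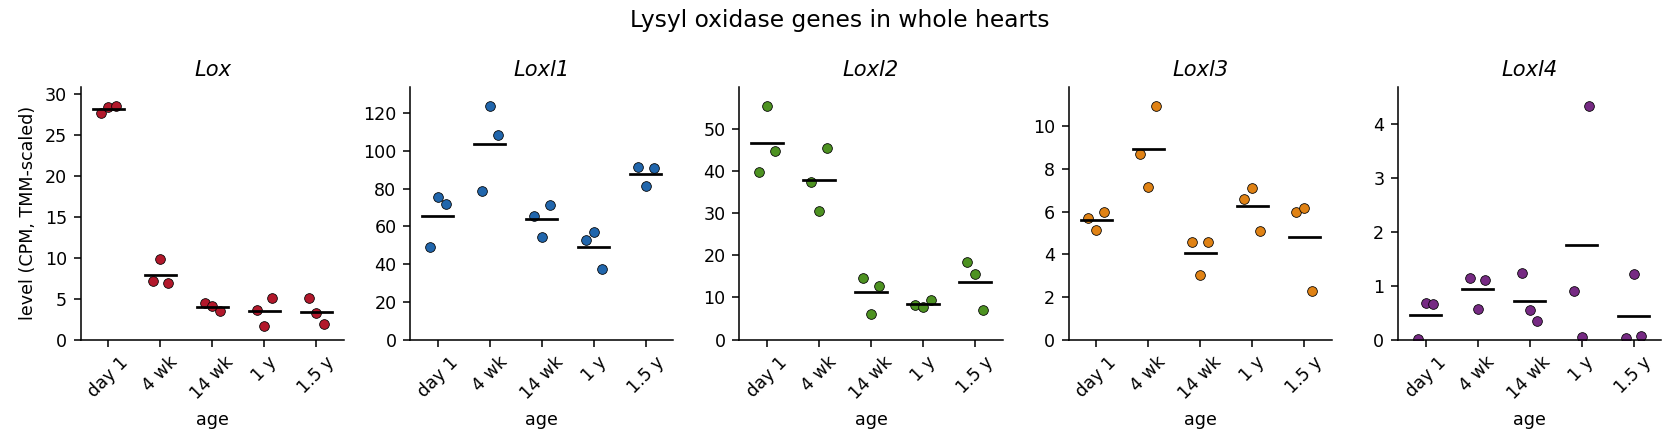
CPM (vertical axes, each from 0) of the 5 family members in each of the 15 whole heart samples, by age with equal spacing along the horizontal axis, with a dot for each sample and a black bar for the mean of an age. Lox is highest at postnatal day 1, Loxl2 is higher at postnatal day 1 and 4 weeks than later, and Loxl1 is highest at 4 weeks and 1.5 years.

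Between postnatal day 1 and 4 weeks Lox fell and Loxl1 rose in whole hearts, 2 of 5 members, against 18.2% of all genes tested. Lox was 3.55-fold lower at 4 weeks (log2 −1.83, SE 0.39, adjusted p = 0.00333 by edgeR's quasi-likelihood test). Loxl1 was 1.58-fold higher (log2 0.66, SE 0.21, adjusted p = 0.0340). This call was lost without replicate 2 or 3 of 4 weeks (adjusted p = 0.143 and 0.0943), without replicate 1 or 3 of postnatal day 1 (adjusted p = 0.157 and 0.0592), and with scaling by library size only, where its log2 change was 0.16 (adjusted p = 0.640). Loxl2 differed by −0.30 (SE 0.33, adjusted p = 0.598), Loxl3 by 0.68 (SE 0.39, adjusted p = 0.262) and Loxl4 by 1.05 (SE 1.60, adjusted p = 0.727). Of 7 fibroblast markers 4 were higher and 1 lower at 4 weeks in whole hearts, and their sum was 622 to 672 CPM at postnatal day 1 and 1909 to 2711 CPM at 4 weeks, while all 7 macrophage markers were higher and 4 of 6 cell cycle genes lower. The part of these differences in the family's changes was not tested.

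Between 4 and 14 weeks Loxl2 fell in whole hearts, 1 of 5 members, against 1.61% of all genes tested. It was 3.37-fold lower at 14 weeks (log2 −1.75, SE 0.34, adjusted p = 0.0151). Without replicate 2 or 3 of 14 weeks or replicate 3 of 4 weeks the adjusted p was 0.0827, 0.0615 and 0.0810, with log2 changes of −1.46, −1.85 and −1.60. Lox, Loxl1 and Loxl3 were also lower with no overlap between these ages, as 9.73% of all genes were, but did not pass, at −0.99 (SE 0.39, adjusted p = 0.270), −0.70 (SE 0.21, adjusted p = 0.115) and −1.14 (SE 0.40, adjusted p = 0.202) on the log2 scale. Loxl1 passed with DESeq2 (adjusted p = 0.0341). Of the 9 endothelial markers 1 was lower by edgeR's test and 6 without overlap, and their sum was 1186 to 1409 CPM at 4 weeks and 839 to 908 CPM at 14 weeks. Of the 6 cell cycle genes 2 were lower, and so was Xist, while 0 of 7 fibroblast markers passed, with 2 at an unadjusted p under 0.05, and the part of these differences in the change of Loxl2 was not tested.

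From 14 weeks to 1 year 0 of 5 members were called in whole hearts by edgeR, against 0.972% of all genes tested, with 0 at an unadjusted p under 0.05 and 0 by DESeq2. Lox differed by −0.20 on the log2 scale (adjusted p = 0.923), with the sign turning to 0.13 without replicate 2 of 1 year, and Loxl1 by −0.38 (adjusted p = 0.440). Loxl2 differed by −0.41 (adjusted p = 0.675), Loxl3 by 0.62 (adjusted p = 0.520) and Loxl4 by 1.31 (SE 1.61, adjusted p = 0.832), with the sign of Loxl4 turning to −0.58 without replicate 3 of 1 year. From 14 weeks to 1.5 years 0 of 5 members were called by edgeR, against 12.8% of all genes tested, with 1 at an unadjusted p under 0.05 and 0 by DESeq2. Loxl1 came nearest, at a log2 difference of 0.46 (SE 0.21, adjusted p = 0.158). Its 3 samples of 1.5 years stood above the 3 of 14 weeks, and the share of all genes that did so is not given here.

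Between postnatal day 1 and 1.5 years Lox and Loxl2 fell in whole hearts, 2 of 5 members, against 31.8% of all genes tested. Lox was 8.28-fold lower at 1.5 years (log2 −3.05, SE 0.41, adjusted p = 3.3e-05) and Loxl2 was 3.41-fold lower (log2 −1.77, SE 0.34, adjusted p = 7.9e-04). Loxl1 stood at 0.42 (SE 0.21, adjusted p = 0.130) with no overlap between samples, for which no share of all genes is given here. With scaling by library size only it stood at −0.18. Loxl3 differed by −0.22 (adjusted p = 0.719) and Loxl4 by −0.05 (adjusted p = 0.990). All 7 macrophage markers and 3 of 7 fibroblast markers were higher at 1.5 years and all 6 cell cycle genes and Ddx3y lower, and their part in these changes was not tested.

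All 5 members were higher in fibroblasts than in whole hearts at each of the 4 ages tested, on CPM scaled over all 27 samples together. Their samples did not overlap, and the share of all genes without overlap is not given here. Among all 20650 genes tested, 13.6% were higher in fibroblasts at postnatal day 1, 17.5% at 4 weeks, 17.1% at 14 weeks and 21% at 1.5 years by edgeR's test. Lox was 9.24-fold higher in fibroblasts at postnatal day 1 (adjusted p = 5.7e-08), 9.23-fold at 4 weeks (adjusted p = 4.5e-08), 20.4-fold at 14 weeks and 19.9-fold at 1.5 years. Loxl1 was 17.0-fold, 13.7-fold, 13.1-fold and 11.8-fold higher at these ages, Loxl2 11.6-fold, 14.4-fold, 24.5-fold and 13.3-fold, and Loxl3 10.8-fold, 8.12-fold, 15.7-fold and 16.0-fold. Loxl4 was 9.10-fold higher at postnatal day 1 (adjusted p = 0.0359), 21.7-fold at 4 weeks (adjusted p = 0.00507), 23.0-fold at 14 weeks (adjusted p = 0.00622) and 20.1-fold at 1.5 years (adjusted p = 0.00749), and its call at postnatal day 1 was lost without any of 5 of the 6 samples, with an adjusted p of up to 0.105 without replicate 1 of whole hearts. With scaling by library size only, all 5 members were also higher at these 4 ages.

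At 1 year, where no test was made, Lox was at 287 and 202 CPM on this common scale in fibroblasts against 4.11, 1.90 and 5.54 CPM in whole hearts, 63.5-fold higher. Loxl1 was 40.0-fold higher, Loxl2 33.8-fold, Loxl3 16.9-fold and Loxl4 13.3-fold. In whole hearts the samples of 1 year and 14 weeks overlapped for Lox, with 3 samples an age. In fibroblasts, with 2 samples an age, they did not, as 26.6% of all genes were higher there without overlap. The family was chosen for these fibroblast values, so nothing is read from this contrast between the tissues.

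The test of whether a change differed between the tissues called 0 of 5 members between postnatal day 1 and 4 weeks with edgeR, against 7.14% of all genes tested, with 0 at an unadjusted p under 0.05 and 0 by DESeq2. For Lox the changes in the tissues differed by −0.00 on the log2 scale (SE 0.49, adjusted p = 1.00), with the sign turning to 0.43 with scaling by library size only. From 4 to 14 weeks 0 of 5 members were called by edgeR, against 0.692% of all genes tested, with 2 at an unadjusted p under 0.05 and 0 by DESeq2. For Lox the changes differed by 1.14 (SE 0.47, adjusted p = 0.362), for Loxl3 by 0.96 (SE 0.40, adjusted p = 0.372) and for Loxl2 by 0.77 (SE 0.44, adjusted p = 0.559). These comparisons share samples with those within each tissue.

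Genes that activate or bind lysyl oxidases or supply their copper moved in both directions in fibroblasts. Counts of called genes in the related lists stand against the shares of all genes called in either direction, which in fibroblasts were 15.5% between postnatal day 1 and 4 weeks, 3.87% from 4 to 14 weeks and 2.72% from 14 weeks to 1.5 years. Of the 14, 5 rose between postnatal day 1 and 4 weeks and 5 fell, with a median log2 change of 0.10 against 0.00 for all genes tested. Fbln5, a fibulin that tethers Loxl1 to elastic fibres, rose by 1.15 (SE 0.12, adjusted p = 2.4e-05 with edgeR), and Ltbp4, a partner of elastic fibre assembly, rose by 0.84 (adjusted p = 2.8e-04). Postn, the matricellular protein periostin, which aids the processing of Lox by BMP1, was −2.97 (SE 0.31, adjusted p = 3.0e-05), and Fn1, fibronectin, a scaffold for that processing, was −1.97 (SE 0.23, adjusted p = 8.2e-05). From 4 to 14 weeks 0 of 14 rose and 3 fell, Bmp1, the protease that removes the propeptide of Lox, at −0.73 (adjusted p = 0.0136), Fn1 at −1.04 (adjusted p = 0.0432) and Thbs1, thrombospondin 1, at −0.97 (adjusted p = 0.0465). From 14 weeks to 1.5 years Thbs1 rose by 1.66 (adjusted p = 0.00756) and Ltbp4 by 0.62 (adjusted p = 0.0384), and 0 of 14 fell.

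Fibrillar collagen genes, which encode the main substrates, fell in the interval in which Loxl2 fell. From 4 to 14 weeks 7 of 9 fell and 0 rose in fibroblasts, with a median log2 change of −1.40 against 0.00 for all genes and 3.87% of all genes called, among them Col3a1 at −1.74 (adjusted p = 0.00369), Col5a1 at −1.56 (adjusted p = 0.00128) and Col5a3 at −1.44 (adjusted p = 6.4e-04). In whole hearts 5 of 9 fell and 0 rose over the same interval, against 1.61% of all genes called, with Col3a1 at −1.95 and Col5a1 at −1.64 (adjusted p = 2.0e-04 each). Between postnatal day 1 and 4 weeks 1 of 9 rose and 3 fell in fibroblasts, with Col11a1 at −5.13 (adjusted p = 4.0e-07) and Col1a1, the major chain of type I collagen, at −0.84 (adjusted p = 0.0132), while Col3a1 at −0.19 (adjusted p = 0.625) and Col1a2 at −0.40 (adjusted p = 0.140) did not pass. From 14 weeks to 1.5 years 1 of 9 rose and 0 fell in fibroblasts, the riser being Col5a3 at 0.98 (adjusted p = 0.0118).

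Elastic fibre and basement membrane genes included the other named substrates. In fibroblasts 4 of 8 rose and 4 fell between postnatal day 1 and 4 weeks, with Mfap5 at 1.51 (adjusted p = 5.3e-04) and Mfap2 at −2.15 (adjusted p = 2.4e-06), both microfibril proteins, and Fbn2, a fibrillin of early life, at −3.91 (adjusted p = 3.0e-06). From 4 to 14 weeks 6 of 8 fell and 0 rose, against 3.87% of all genes called, with Eln, elastin, at −2.38 (SE 0.26, adjusted p = 4.9e-04) and Fbn1, fibrillin 1, at −0.84 (adjusted p = 0.0252). In whole hearts 7 of 8 fell over that interval, against 1.61% of all genes called, with Eln at −2.05 (adjusted p = 1.8e-04).

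The list of other cross-linking enzymes, which also holds the chaperone Fkbp10 and the matrix protein fibromodulin, moved in both directions. In fibroblasts 2 of 10 rose and 3 fell between postnatal day 1 and 4 weeks, with Tgm2, a transglutaminase, at 2.24 (adjusted p = 3.2e-05), Pxdn, the peroxidase that cross-links type IV collagen, at −0.98 (adjusted p = 9.0e-05) and Plod2, a lysyl hydroxylase of collagen telopeptides, at −0.84 (adjusted p = 0.00273). From 4 to 14 weeks Fmod, fibromodulin, rose by 2.33 (adjusted p = 0.00260) and Pxdn fell, at −0.68 (adjusted p = 0.0143). Between 14 weeks and 1.5 years 2 of the 9 genes of this list with at least 1 CPM at both ages were called by edgeR. Over all genes tested the share was 2.72%. DESeq2 called 1 gene of the list higher and 2 lower. TGF-β response genes rose in fibroblasts in the interval in which Lox fell, since 7 of 8 were higher and 1 lower at 4 weeks than at postnatal day 1, against 15.5% of all genes called, with Tgfbi at 3.00 (adjusted p = 4.4e-08) and Ctgf at 2.34 (adjusted p = 5.6e-05). The immediate early genes rose in the same comparison, 7 of 8, and their part in the change of this list was not tested. From 4 to 14 weeks 1 of 8 was higher, Ltbp2 at 0.86 (adjusted p = 0.0419), and 0 were lower.

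At 1 year against 14 weeks, given without a test, 11 of the 14 activation and partner genes, 6 of the 9 fibrillar collagens and 6 of the 8 elastic fibre and basement membrane genes stood higher in fibroblasts without overlap, against 26.6% of all genes. The median log2 difference was 0.43, 0.85 and 0.49 in these lists. Thbs1 stood at 1.60, Pcolce, an enhancer of BMP1, at 0.80, Col3a1 at 1.02, Col1a1 at 0.85 and Col4a2 at 0.70, while Ltbp4 stood at 0.15. Of the 10 genes in the list of other cross-linking enzymes 5 were higher and 3 lower, and of the 8 TGF-β response genes 3 were higher and 2 lower. For the lower counts no share of all genes is given here. From 1 year to 1.5 years 6 of the 14 activation and partner genes, 5 of the 9 fibrillar collagens and 7 of the 8 elastic fibre and basement membrane genes stood lower without overlap, against 21% of all genes, with Col3a1 at −1.59 and Col4a2 at −1.07. Both comparisons rest on the 1-year samples from which the family was chosen, so nothing is read from these counts. The marker differences given above for 1 year against 14 weeks lie in the same samples, and their part was not tested.

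**Figure D5:**
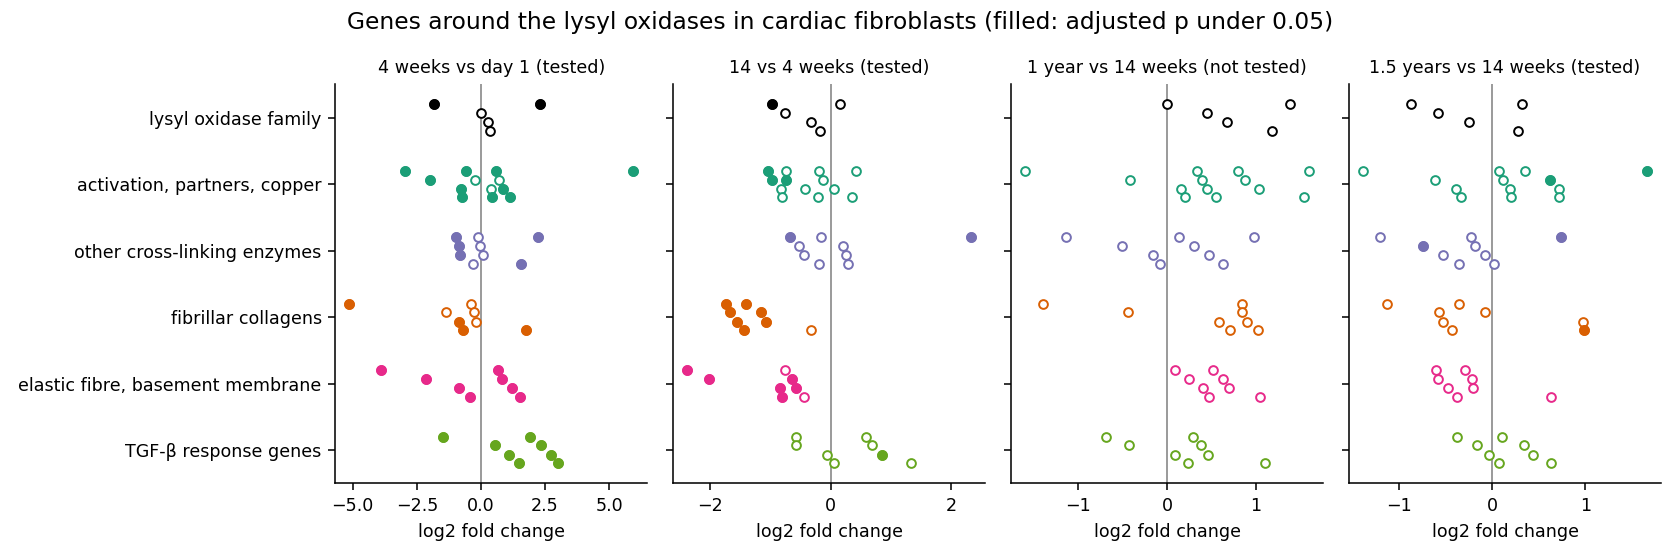
Log2 fold change in fibroblasts of genes of the family and of 5 related lists (horizontal axis), in 4 comparisons of ages, with 1 point a gene, filled for an adjusted p under 0.05 and open otherwise, for the 51 genes with a mean of at least 1 CPM at both ages. The comparison of 1 year with 14 weeks was not tested and its points are all open, with most collagen and elastic fibre genes above 0, and most of these genes lie below 0 from 4 to 14 weeks.

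Among 8818 genes compared over the 12 fibroblast samples, the genes whose log2 levels were most like those of Lox were Limd1 (Pearson r = 0.940), Tnc (r = 0.931), Uqcr10 (r = 0.924), Eif4ebp1 (r = 0.919) and Arhgap1 (r = 0.916). Tnc encodes the matricellular protein tenascin C. The genes most like Loxl1 were Mmp2 (r = 0.927), Mrc2 (r = 0.893) and Capns1 (r = 0.892), of which Mmp2 encodes gelatinase A and Mrc2 a collagen uptake receptor. The genes most like Loxl2 were Adamts12 (r = 0.974), Adamts19 (r = 0.953) and Pi15 (r = 0.952). The genes most like Loxl3 were Slc39a1 (r = 0.935), Fbln2 (r = 0.905) and Tmed3 (r = 0.897), and those most like Loxl4 were Slco3a1 (r = 0.951), Pdcd6ip (r = 0.939) and Myl6 (r = 0.938). These are descriptions over samples that share ages and scaling, and they carry no test.

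Among the members themselves, levels went together most closely for Loxl1 and Loxl3 in fibroblasts, with a Pearson r of 0.755 and a Spearman rho of 0.685 over 12 samples. Lox and Loxl1 were related at r = 0.252 and rho = 0.147, and Lox and Loxl4 at r = −0.436 and rho = −0.196. In whole hearts Lox and Loxl2 went together at r = 0.837 and rho = 0.832 over 15 samples, against r = 0.351 and rho = 0.441 in fibroblasts. Among genes of the related lists, Postn was the most like Lox in fibroblasts, at r = 0.865, with 0.306% of genes compared at a higher r, followed by Fkbp10, a collagen chaperone, at r = 0.802, while Tgfbi ran opposite at r = −0.834.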

How the data were processed

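RNA-Seq of 12 cardiac fibroblast and 15 whole heart samples was used, all of them. Per the labels and the methods of the study, the authors mapped single-end 65 base reads to mm10 with STAR 2.5.3a and counted reads per gene with its GeneCounts mode. The deposited values are raw counts, checked to be whole numbers, with totals of 54615898 to 76758831 in fibroblasts and 46091271 to 67984404 in whole hearts. The gene annotation and strand setting of the counting are not given in the sources used here. The study's methods name 3 sets of fibroblasts an age, and the labels hold 2 at each age past 4 weeks. None of the 24 pairs of samples of a group were identical, at 0 pairs.

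The family was found by symbol. The members, the related gene lists and the tests were chosen with earlier results of these data known. Each tissue was fitted with all its samples in edgeR 4.0.16 (R 4.3.3, limma 3.58.1), with age as the factor, genes kept by filterByExpr (18759 in fibroblasts, 17995 in whole hearts, 20650 over all 27 samples) and TMM scaling. Ages, tissues and differences between tissues were tested by quasi-likelihood, and a gene was called at a Benjamini-Hochberg adjusted p under 0.05 over all genes tested. Where samples did not overlap and no share of all genes stands beside this, nothing is read from the lack of overlap. The standard error of a log2 change was taken as its size divided by the square root of F. The main edgeR fit and test were also run on simulated counts, for some of the comparisons. The alternatives, the levels per kilobase and the likeness were not. The outcome of the simulated runs is not given here, so they lend no support to the calls.

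CPM are counts per 1000000 reads of the TMM-scaled library. Levels per kilobase used the merged exon length from GENCODE M21 on GRCm38, found for 21796 of 22855 symbols (95.4%). Likeness was Pearson's r of log2(CPM + 1) among tested genes with a mean of at least 10 CPM. Named in each related list were up to 4 called genes with the smallest adjusted p and up to 3 uncalled genes with the highest CPM. A gene that this rule named is not reported here. Tnc and other genes like a member follow the rule of the 5 highest r for Lox and 3 for the others. Postn, Fkbp10 and Tgfbi beside Lox were chosen after their r was seen.

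Alternatives were DESeq2 1.42.0, other scaling factors, other count filters, a 2-fold minimum, a transcript length offset, no mitochondrial genes, only the groups compared, a replicate block and leaving out each sample. Same-numbered samples did not pair in the tested comparisons with 3 shared numbers, where the correlation of their deviations from the group means ran from −0.183 to 0.0834. Between 1 and 1.5 years in fibroblasts, which share 2 numbers and were not tested, it was 0.255. With 2 samples an age both numbers give the same value by construction. Figures were drawn with matplotlib 3.10.9 in python 3.11.15 (pandas 2.3.3, numpy 2.4.6).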

Additional observations from a re-analysis of the deposited data

How the results depend on the processing

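Of 1184 values of single members under an alternative, 1101 kept their direction and their side of the threshold, 28 kept their direction and lost the call, 8 gained one and 47 changed sign, of which 0 had been called. The causes were not tested. In fibroblasts from 4 to 14 weeks the count of members called, 1, became 2 with at least 10 counts in every sample, with DESeq2, without a filter on low counts and with the transcript length offset, each by adding Loxl1 (adjusted p = 0.0282, 0.00217, 0.0405 and 0.0330), 0 with a minimum of 2-fold, and 0 to 2 when a sample was left out. In whole hearts from 4 to 14 weeks the count of 1 became 2 with DESeq2 and with library size only, which added Loxl1, and ran from 0 to 1 when a sample was left out. In whole hearts from postnatal day 1 to 4 weeks the count of 2 became 1 with a minimum of 2-fold, library size only, only the groups compared (adjusted p = 0.0862) and the replicate block on only these groups (adjusted p = 0.0618), each by the loss of Loxl1, and ran from 1 to 2 when a sample was left out. From 14 weeks to 1.5 years in whole hearts the count of 0 became 1 with at least 10 counts in every sample (Loxl1, adjusted p = 0.0498). Loxl4 lost its call between postnatal day 1 and 1.5 years in fibroblasts with library size only (0.92, adjusted p = 0.0527) and with only the groups compared (adjusted p = 0.176), and against whole hearts with only the groups compared at postnatal day 1 (adjusted p = 0.0784) and 1.5 years (adjusted p = 0.0665).

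Scaling by library size only moved the median log2 change of all genes from −0.09 to −0.60 between postnatal day 1 and 4 weeks in whole hearts, from −0.15 to −0.75 between postnatal day 1 and 1.5 years, and from 0.04 to 0.71 for fibroblasts against whole hearts at 14 weeks, where it changed the calls over all genes from 3533 higher and 3647 lower to 5623 and 2449. Under it Loxl1 stood at −0.18 between postnatal day 1 and 1.5 years in whole hearts, Loxl2 at −0.0653 from postnatal day 1 to 4 weeks in fibroblasts, and the tissue difference from postnatal day 1 to 4 weeks at 0.43 for Lox, 0.11 for Loxl1 and 0.00844 for Loxl3, and from 4 to 14 weeks at 0.25 for Loxl1. Loxl2 from postnatal day 1 to 4 weeks in fibroblasts was −0.0117 with at least 10 counts in every sample, −0.00805 with DESeq2, −0.00902 with median-of-ratios size factors and −0.14 with the length offset. Over the longest span in whole hearts, postnatal day 1 against 1.5 years, the length offset gave 0.00240 for Loxl3 and 0.18 for Loxl4, and leaving out mitochondrial genes 0.00295 for Loxl4.

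The replicate block was fitted on only the groups compared, which changes a pair of choices together. In this fit Loxl1 between postnatal day 1 and 4 weeks in whole hearts (0.64) and Loxl4 against whole hearts at postnatal day 1 (3.94, adjusted p = 0.122) were not called, but both calls were already lost on only these groups without the block, and with the length offset the blocked Loxl1 was called. The block changed no other call. It turned the sign of Lox in the tissue difference from postnatal day 1 to 4 weeks (0.00411) and of Loxl4 from 14 weeks to 1 year in whole hearts (−0.12, or −0.10 with the length offset), and with the length offset that of Loxl2 from postnatal day 1 to 4 weeks in fibroblasts (−0.0575). No block could be fitted in fibroblasts from 4 to 14 weeks or at 1.5 years, between tissues at 14 weeks and 1.5 years, or for the tissue difference from 4 to 14 weeks, since these share fewer than 2 replicate numbers.

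Leaving out a sample also turned the sign of uncalled values. In fibroblasts the range was −0.13 to 0.12 for Loxl2 from postnatal day 1 to 4 weeks, −0.39 to 0.0121 for Loxl3 from 4 to 14 weeks and −0.39 to 0.18 for Loxl1 between postnatal day 1 and 1.5 years. In whole hearts it was −0.57 to 0.13 for Lox and −0.58 to 1.98 for Loxl4 from 14 weeks to 1 year, −0.65 to 0.0703 for Lox and −0.00461 to 0.60 for Loxl2 from 14 weeks to 1.5 years, and −0.44 to 0.11 for Loxl3 and −3.09 to 0.49 for Loxl4 between postnatal day 1 and 1.5 years. For the tissue difference it was −0.21 to 0.16 for Lox from postnatal day 1 to 4 weeks, and −0.25 to 0.11 for Loxl1 and −0.26 to 0.76 for Loxl4 from 4 to 14 weeks.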

Other observations

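In whole hearts the members also moved against the summed level of the 7 fibroblast markers, a ratio chosen after the values were seen. Loxl1 stood at 74.3, 122 and 107 CPM per 1000 CPM of these markers at postnatal day 1, at 41.3, 46.0 and 40.0 at 4 weeks, at 29.0, 28.1 and 29.9 at 14 weeks, at 19.2, 20.4 and 20.1 at 1 year, and at 29.9, 31.2 and 30.6 at 1.5 years. The 1-year samples were the lowest of all ages for Loxl1 and lay close together. Lox stood at 42.1, 45.8 and 42.5 at postnatal day 1 and at 2.53 to 3.75 at 4 weeks on the same scale. The marker sum was itself at least 41023 CPM in the fibroblasts of 4 weeks and at most 8247 CPM in those of postnatal day 1, so the ratio does not stand for a number of cells, and Pcolce is both a marker and a list member.

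The fibroblast ages from 14 weeks hold 2 samples each, which limits their precision, and Loxl4 in whole hearts rests on 1 to 216 reads a sample. The 1-year values of the family are a description of the samples from which the family was chosen. Age, sex-linked transcripts, marker levels and the response to isolation differed together between some ages, and no value here separates them.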
